A study of Mus musculus with 10 samples.

Results

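Mouse erythroblasts, the dividing precursors of red blood cells, were compared across 4 genotypes for the expression of 40 genes of the DNA replication machinery. The 40 genes had been chosen by name from the 53465 genes of the deposited count table, as components of origin licensing, the helicase, the polymerases and the chromatin formed behind the fork. All 40 passed the filter on low counts and were tested. The cells came from spleens of C57BL/6 mice 11 days after 5-FU, a drug that kills dividing blood precursors, and were isolated with a Miltenyi Biotec bead reagent. The groups were wild type mice (2 libraries), mice deleted for the miR-144 and miR-451 microRNA cluster (miR-144/451-null, 2 libraries), mice lacking Nrf2 (Nrf2-null, 3 libraries) and mice lacking both (double-null, 3 libraries). All 4 groups had received 5-FU, so no library shows unstressed spleen. Mouse age, allele design and any pooling of animals: not given in the sources used here. Nothing in the labels says that libraries of a genotype came from separate mice, so each p-value reflects only the spread among these libraries, which may be technical.

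The origin recognition complex, with Cdc6 and Cdt1, loads a ring of 6 Mcm proteins onto DNA, and Cdc45 and the GINS complex turn that ring into the moving helicase. DNA polymerase alpha and primase lay down primers, the sliding clamp Pcna and its loader hold the main polymerases on the template, and Fen1 and Lig1 trim and join the fragments of the lagging strand. Many of these genes are textbook targets of E2F transcription factors at the entry to S phase, and erythroblasts keep dividing, with repeated S phases, while they mature.

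Library totals lay between 13087827 and 15131036 counts, and the replication genes took 0.340% to 0.734% of them. Erythroblast markers were present in each library, among them the erythroid transcription factor Klf1 at 201 to 577 CPM (counts scaled by the library total). Mir144, which lies in the deleted cluster, had 9 to 17 counts in each wild type and Nrf2-null library and 0 in the 5 libraries without the cluster. A whole-gene count of Nfe2l2, the gene of Nrf2, was 668 to 1468 in the 10 libraries and does not check a partial deletion. Counts of Xist and of Y-linked genes marked wild type replicates 1 and 3 and double-null replicate 3 as female and the remaining 7 libraries as male, so between wild type and either single-null genotype, sex and genotype cannot be told apart.

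Mean levels of the replication genes were mostly lowest in double-null cells and highest in Nrf2-null cells, with overlap between libraries. The mean of the double-null libraries was the lowest of the 4 genotypes for 30 of the 40 genes, and that of the Nrf2-null libraries was the highest for 34. Taking each gene relative to its mean over the 10 libraries, the median gene stood at 113%, 129% and 130% in Nrf2-null replicates 1 to 3. It stood at 81.9%, 67.3% and 99.03% in the double-null replicates. The corresponding wild type medians were 122% and 95.3%, and those of the miR-144/451-null libraries were 96.5% and 83.8%. Double-null replicate 3 was thus above both miR-144/451-null libraries, and wild type replicate 1 above Nrf2-null replicate 1. Levels within a genotype also varied together: wild type replicate 1 was above replicate 3 for 39 of the 40 genes, and double-null replicate 3 was above the other double-null libraries for 35. Double-null replicate 2 was the lowest of all 10 libraries for 33 genes.

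**Figure D1:**
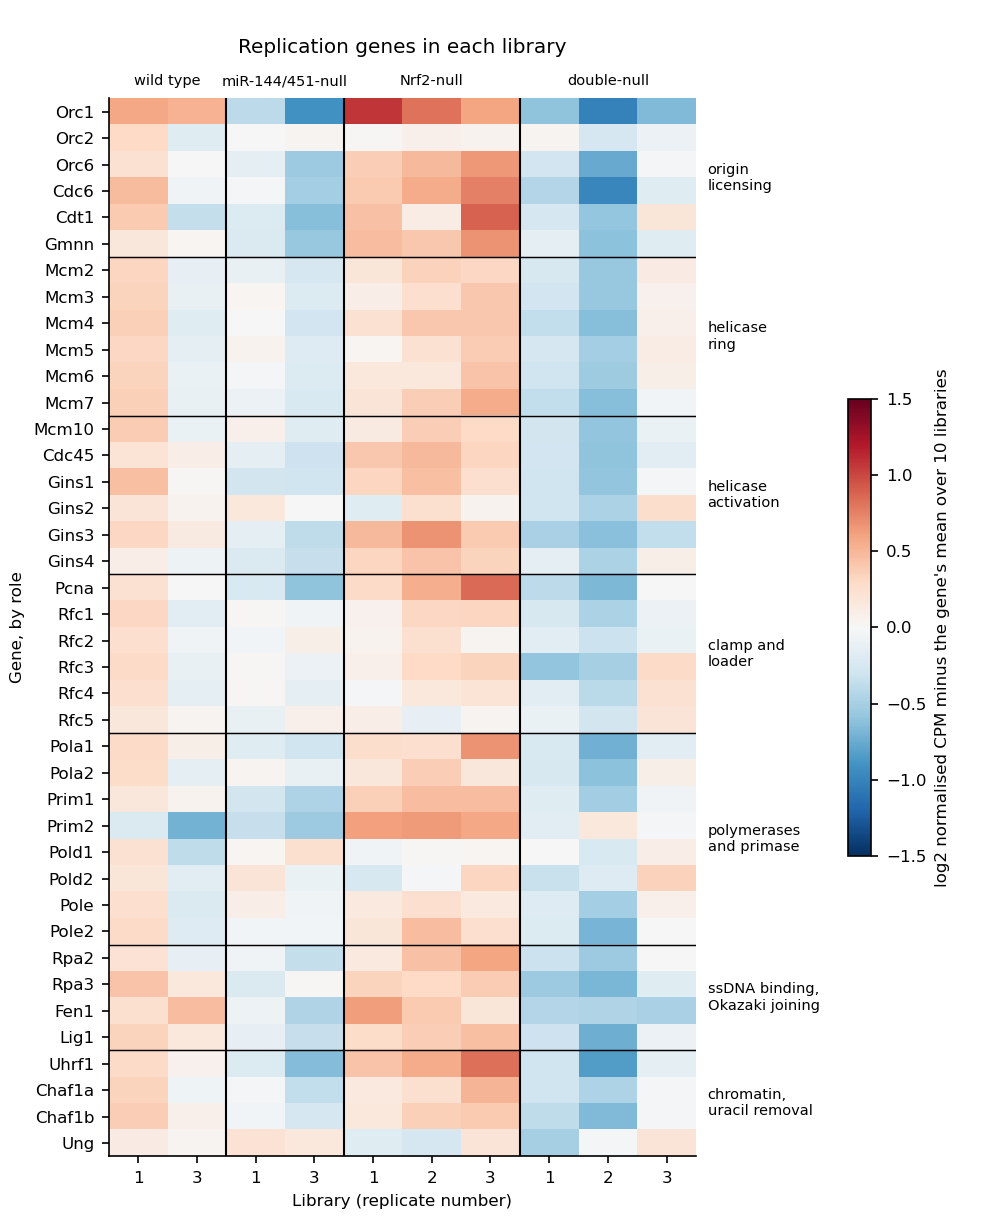
Heat map of the 40 replication genes (rows, grouped by role) in the 10 libraries (columns, by genotype and replicate number); colour gives log2 normalised CPM minus the gene's mean over the 10 libraries, red for higher and blue for lower. Most rows are red in the 3 Nrf2-null columns and blue in double-null replicates 1 and 2, while double-null replicate 3 is paler.

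Double-null and Nrf2-null cells both lacked Nrf2 and differed by the miR-144/451 cluster, and replication genes were lower in the double-null cells. By edgeR's quasi-likelihood test with Benjamini-Hochberg adjustment over 14110 genes, 24 of the 40 genes fell and none rose at an adjusted p under 0.05. Among all tested genes 12.9% fell and 14.4% rose in this comparison. The median log2 fold change of the 40 genes was -0.60, against 0.02 over all tested genes, and all 40 estimates were below 0. With library totals alone as the scaling, 39 of the 40 were below 0 and 18 fell, against 1650 of all 14110 tested genes. In normalised CPM (CPM scaled with TMM factors) the 3 double-null libraries all lay below the 3 Nrf2-null libraries for 30 of the 40 genes, and this separation held for 21.8% of all tested genes. The call was kept without any 1 of the 10 libraries for 13 of the 24 genes: Orc1, Orc6, Cdc6, Gmnn, Cdc45, Gins3, Pcna, Pola1, Prim1, Prim2, Rpa3, Lig1 and Uhrf1. The number that fell was 14 without double-null replicate 1, 14 without double-null replicate 2, 15 without Nrf2-null replicate 2 and 16 without Nrf2-null replicate 3. Among male libraries alone, which leave out double-null replicate 3, 31 of the 40 genes fell, against 7.90% of all tested genes.

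Other measures moved with this comparison. Globin genes made up 9.86% to 12.2% of a double-null library and 7.08% to 9.49% of a Nrf2-null library. The 8 B cell markers, all detected in each library, summed to 311 to 710 CPM in double-null and 854 to 1017 CPM in Nrf2-null libraries, and the 6 T cell markers to 11.2 to 42.0 and 48.8 to 57.2 CPM. The 4 megakaryocyte markers summed to 113 to 158 CPM in double-null and 32.9 to 54.8 CPM in Nrf2-null libraries, mostly from Itga2b. Of the others, Gp9 went the opposite way, at 4.80 to 5.85 CPM in double-null and 11.4 to 12.8 CPM in Nrf2-null libraries. Pf4 and Ppbp overlapped between these groups. The 4 early progenitor markers (Kit, Gata2, Cd34 and Myb) overlapped, at 26.6 to 74.7 and 13.7 to 56.9 CPM. Macrophage markers were highest in Nrf2-null replicate 3, at 864 CPM. Without that library and double-null replicate 3 together, 20 of the 40 replication genes fell, with a median of -0.66. In that fit 858 of all 13934 tested genes fell. The part of these cell types and of globin RNA in the result was not tested. In such bulk libraries, fewer cells in S phase and less of each RNA per cell cannot be told apart.

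**Figure D2:**
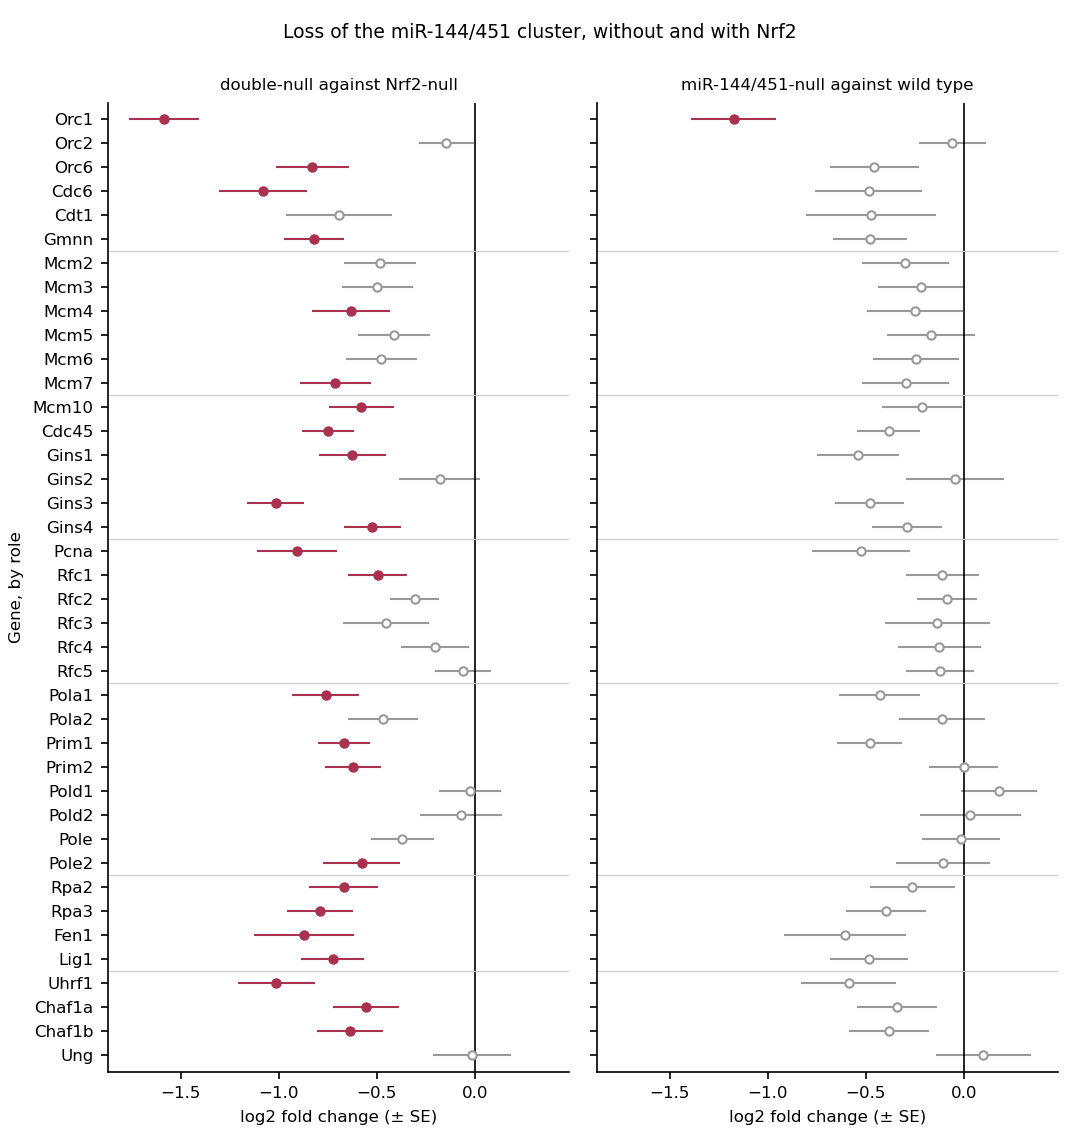
Log2 fold change ± SE of each of the 40 replication genes on loss of the miR-144/451 cluster, without Nrf2 (left, double-null against Nrf2-null) and with Nrf2 (right, miR-144/451-null against wild type); filled red points passed an adjusted p of 0.05 and open grey points did not. All 40 points lie left of 0 on the left and 37 on the right, where Orc1 alone passed.

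The genes were chosen by name and not by promoter sequence. Since many are textbook E2F targets, a raised share of E2F motifs among them is not an independent result. RefSeq promoter windows (GRCm38.p6, 250 bases before to 50 after a start site) were found for 32 of the 40 genes. They were searched on both strands for an E2F motif written as TTTCCCGC, TTTCGCGC, TTTGCCGC or TTTGGCGC. A match was present in 14 of the 32 (43.8%), against 457 of the 9769 tested genes with a window (4.68%) and 2.6% of all 27025 genes with a window. Matches on opposite strands can overlap at the GC-rich end of the motif. With the first 2 letters dropped the share was 26 of 32 (81.2%), against 64.4% of tested genes, and the plain letters CCAAT were present in 21 (65.6%), against 42.9%. The 8-letter motif was present in 8 of the 19 genes with a window that fell in double-null against Nrf2-null cells (42.1%) and in 6 of the 13 that did not pass (46.2%). The median log2 fold change was -0.70 for the 14 genes with a match and -0.57 for the 18 without.

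The 250 bases before the start site are shown for 6 genes, with motif matches in capitals. Orc1, Cdc6, Gins3 and Uhrf1 are the 4 genes that fell by at least 2-fold in double-null against Nrf2-null cells, and each holds 1 match. Mcm5 and Mcm6 carry overlapping matches and did not pass the test. The stretches lie at chr4:108579204-108579453 (Orc1), chr11:98907901-98908150 (Cdc6), chr8:95633309-95633558 (Gins3), chr17:56304063-56304312 (Uhrf1, the second of its 2 start sites in the table) and chr8:75109259-75109508 (Mcm5), all on the plus strand, and chr1:128359706-128359955 (Mcm6) on the minus strand.
Orc1: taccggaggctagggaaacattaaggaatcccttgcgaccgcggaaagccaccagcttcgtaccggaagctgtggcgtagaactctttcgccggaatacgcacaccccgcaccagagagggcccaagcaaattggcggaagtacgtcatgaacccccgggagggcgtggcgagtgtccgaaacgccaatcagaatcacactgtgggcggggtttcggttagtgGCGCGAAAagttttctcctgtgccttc
Cdc6: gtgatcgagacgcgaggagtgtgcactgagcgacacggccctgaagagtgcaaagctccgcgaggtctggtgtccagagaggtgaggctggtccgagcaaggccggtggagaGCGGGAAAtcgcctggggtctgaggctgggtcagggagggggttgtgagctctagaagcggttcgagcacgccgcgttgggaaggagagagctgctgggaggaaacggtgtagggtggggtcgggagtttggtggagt
Gins3: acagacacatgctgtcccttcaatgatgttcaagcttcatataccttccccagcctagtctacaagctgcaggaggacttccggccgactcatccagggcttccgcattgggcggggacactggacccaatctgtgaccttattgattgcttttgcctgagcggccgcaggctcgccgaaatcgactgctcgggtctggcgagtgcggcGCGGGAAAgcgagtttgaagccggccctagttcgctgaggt
Uhrf1: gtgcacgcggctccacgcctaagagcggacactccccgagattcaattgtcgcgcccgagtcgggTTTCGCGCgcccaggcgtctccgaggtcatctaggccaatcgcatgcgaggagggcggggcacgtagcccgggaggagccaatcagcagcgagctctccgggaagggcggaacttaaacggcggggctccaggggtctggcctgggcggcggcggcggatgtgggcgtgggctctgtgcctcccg
Mcm5: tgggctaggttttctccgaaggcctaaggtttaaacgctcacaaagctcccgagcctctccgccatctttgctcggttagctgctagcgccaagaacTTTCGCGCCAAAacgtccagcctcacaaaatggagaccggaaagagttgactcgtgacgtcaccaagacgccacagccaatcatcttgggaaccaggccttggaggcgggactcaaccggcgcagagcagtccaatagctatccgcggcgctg
Mcm6: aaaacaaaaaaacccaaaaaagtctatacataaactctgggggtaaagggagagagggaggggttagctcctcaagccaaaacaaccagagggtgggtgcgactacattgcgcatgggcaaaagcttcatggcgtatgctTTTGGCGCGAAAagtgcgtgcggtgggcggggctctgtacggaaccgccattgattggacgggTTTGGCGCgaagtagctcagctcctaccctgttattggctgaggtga

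The Orc1 match is on the strand opposite the gene, with its first base at position -27, where -1 is the last base before the start site. The Gins3 match is similarly placed, opposite the gene at -41, and that of Cdc6 lies opposite the gene at -138. The Uhrf1 match is on the strand of the gene at -185. In Mcm5 the matches at -153 and -149 lie on opposite strands and share letters, as do those of Mcm6 at -110 and -106, and Mcm6 has a further match at -47. A match is a description of letters and says nothing of whether a factor binds there.

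**Figure D3:**
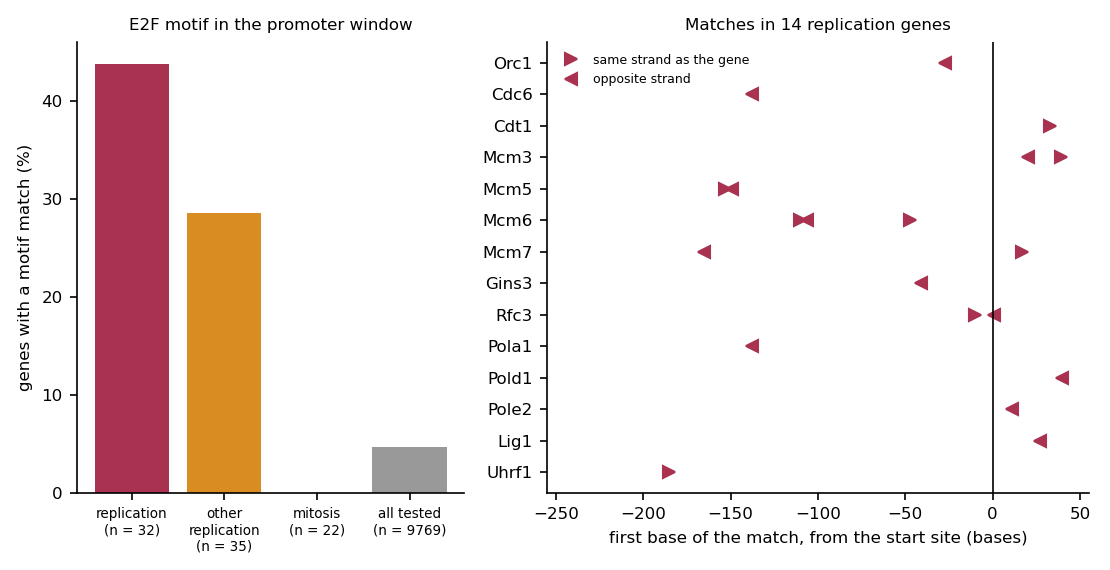
Left, percent of genes with an E2F motif match in a promoter window, for the replication genes, 43 other replication genes, 25 mitosis genes and all tested genes (n, genes with a window); right, the first base of each match relative to the start site in the 14 replication genes, with the triangle pointing along the strand of the match. Matches were in 43.8% of the replication genes with a window, 28.6% of other replication genes, none of 22 mitosis genes and 4.68% of all tested genes.

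Origin licensing genes showed both the largest decrease of the 40 and 1 of the smallest. Orc1, the largest subunit of the origin recognition complex, was at 70.3 and 67.3 normalised CPM in the wild type libraries, and at 36.0 and 25.1 where miR-144/451 alone was lost. It was at 98.7, 82.8 and 70.8 in Nrf2-null and at 31, 23.3 and 29.8 in double-null libraries. The 5 libraries without the cluster lay below all 5 libraries that had it. Orc6, Gmnn, Cdc45, Gins1, Gins3, Pola1, Prim1, Rpa3, Fen1, Lig1, Uhrf1 and Chaf1b showed this separation too. Its share among all tested genes was not counted, so the replication genes cannot be called unusual for it. Orc1 fell 3.0-fold in double-null against Nrf2-null cells (log2 fold change -1.59 ± 0.18 SE, edgeR adjusted p = 0.000177). It also fell in double-null against wild type cells (-1.29 ± 0.19, edgeR adjusted p = 0.00198) and kept both calls without any 1 library. Of its 31-mers (stretches of 31 bases of its transcripts), 11% are also found in other genes, most often in Gm12743, which overlaps it on the opposite strand.

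Orc2, another subunit of the same complex, behaved differently. Its level was 67.0 and 48.1 normalised CPM in the wild type, 54.5 and 56.2 in miR-144/451-null, 55.3, 57.4 and 56.3 in Nrf2-null, and 56.1, 45.7 and 51.2 in double-null libraries. The groups overlapped, and the difference between double-null and Nrf2-null cells was -0.14 ± 0.14 (edgeR adjusted p = 0.47). Per length, the ratio of Orc1 to Orc2 in deposited FPKM (fragments scaled by gene length and library total) was 0.496 to 0.732 in the 5 libraries without the cluster and 1.16 to 1.98 in the 5 with it. Reads of Orc2 are partly uncertain, since 27.9% of its 31-mers are also found in other genes, most often in Nif3l1, which overlaps it on the opposite strand.

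Cdc6, the loader that brings the Mcm ring to the origin, was at 260 and 180 normalised CPM in the wild type, 184 and 131 in miR-144/451-null, 245, 275 and 315 in Nrf2-null, and 137, 94.3 and 164 in double-null libraries. The double-null libraries all lay below the Nrf2-null libraries, and Cdc6 fell 2.11-fold between them (-1.08 ± 0.22, edgeR adjusted p = 0.00555). Orc6, the smallest subunit of the complex (-0.83 ± 0.19), and Gmnn, which encodes the licensing inhibitor geminin (-0.82 ± 0.16), fell as well. Cdt1, the partner of Cdc6 and the target of geminin, did not pass (-0.69 ± 0.27, edgeR adjusted p = 0.0841). Its 148.6 to 253.8 normalised CPM in Nrf2-null libraries overlapped the 92.3 to 156.6 of double-null libraries. Thus 4 of the 6 licensing genes fell, with a median of -0.82.

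The 6 genes of the helicase ring, Mcm2 to Mcm7, had estimates within a narrow range, from -0.71 to -0.41 with a median of -0.49. Their levels per length were also close to each other: within a library the highest of the 6 was 1.45 to 1.72 times the lowest in deposited FPKM, with Mcm2 the lowest in each library and Mcm5 or Mcm7 the highest. Mcm7 was at 471 and 340 normalised CPM in the wild type, 347 and 314 in miR-144/451-null, 419, 477 and 542 in Nrf2-null, and 285, 236 and 358 in double-null libraries. Double-null and Nrf2-null libraries did not overlap, although double-null replicate 3 was above wild type replicate 3. Mcm7 (-0.71 ± 0.18, edgeR adjusted p = 0.0152) and Mcm4 (-0.63 ± 0.20, edgeR adjusted p = 0.037) fell. The other 4 had edgeR adjusted p from 0.0634 to 0.118, and of them the libraries of Mcm5 alone overlapped. The difference in calls within the ring is not a difference between its genes, which was not tested. Part of the Mcm7 count is uncertain, since 33.4% of its 31-mers are also found in other genes, most often in a processed pseudogene.

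Among the genes that turn the loaded ring into a helicase, 5 of 6 fell in double-null against Nrf2-null cells, with a median of -0.60. Gins3, a subunit of the GINS complex, was at 30.5 and 26.9 normalised CPM in the wild type, 22.3 and 18.9 in miR-144/451-null, 34.5, 39.3 and 32.2 in Nrf2-null, and 17.5, 15.96 and 18.9 in double-null libraries. The Nrf2-null libraries were the highest and the wild type libraries the next, with no overlap between the 2 genotypes. Gins3 fell 2.02-fold (-1.02 ± 0.14, edgeR adjusted p = 0.000662). Cdc45, which binds the ring together with GINS, was at 97.3, 102.9 and 92.1 normalised CPM in Nrf2-null and 60.1, 48.3 and 65.6 in double-null libraries, and fell by 0.75 ± 0.13 on the log2 scale (edgeR adjusted p = 0.00211). Gins1 (-0.63 ± 0.17), Gins4 (-0.52 ± 0.15) and Mcm10, which helps to activate the helicase (-0.58 ± 0.17), fell too. Gins2 did not pass (-0.18, edgeR adjusted p = 0.553). Its count is the least certain of the GINS genes, since 66.2% of its 31-mers are also found in other genes, most often in Gse1 on the opposite strand.

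Pcna, the sliding clamp, had the highest level per length of the 40 genes, with a mean of 243 FPKM over the 10 libraries. It was at 652 and 558 normalised CPM in the wild type, 476 and 365 in miR-144/451-null, 678.5, 810 and 1004 in Nrf2-null, and 423, 349 and 559 in double-null libraries. Each double-null library was below each Nrf2-null library, and Pcna fell 1.87-fold (-0.91 ± 0.20, edgeR adjusted p = 0.00802). Of its 31-mers, 23.3% are also found in other genes, most often in a pseudogene of Pcna. Of the 5 genes of the clamp loader, Rfc1, the large subunit, fell (-0.50 ± 0.15, edgeR adjusted p = 0.0324), and Rfc2 (-0.31), Rfc3 (-0.45), Rfc4 (-0.20) and Rfc5 (-0.06) did not pass. Rfc5 was at 51.8, 44.1 and 49.5 normalised CPM in Nrf2-null and 44.8, 39.8 and 54.9 in double-null libraries, which overlap.

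**Figure D4:**
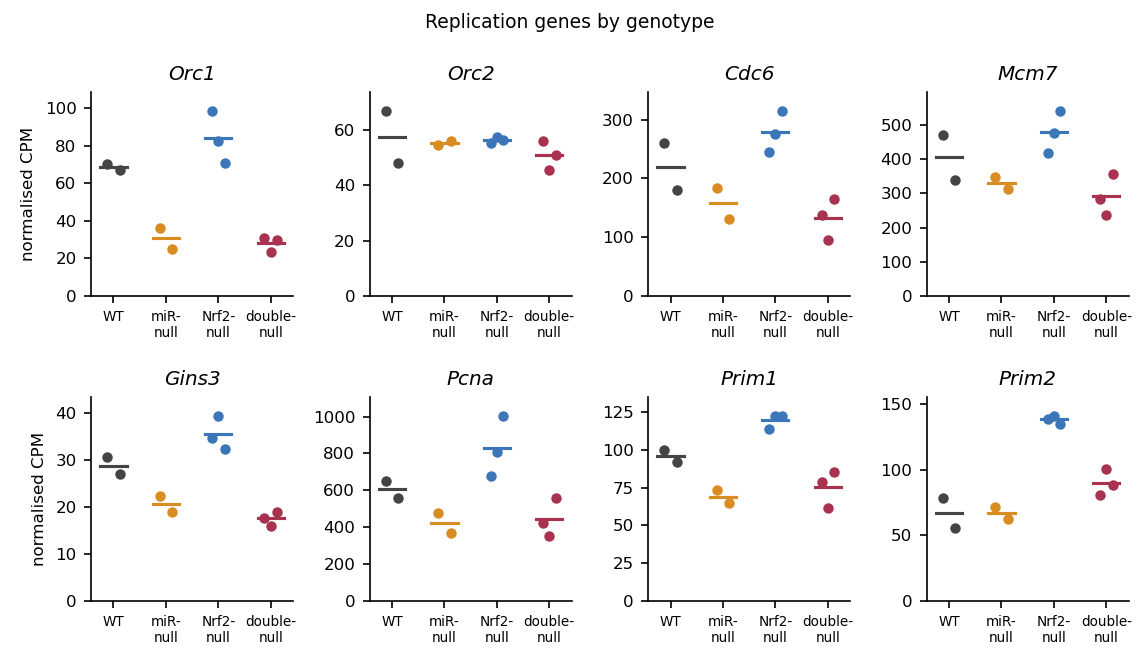
Normalised CPM of 8 replication genes in each library (points) by genotype, with the mean of each genotype as a bar; axes start at 0. Orc1 separates libraries with and without the cluster (67.3 to 98.7 against 23.3 to 36.0), Orc2 does not, and Prim2 is highest in the 3 Nrf2-null libraries.

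DNA polymerase alpha and primase start each new strand, and the genes of this complex fell in double-null against Nrf2-null cells except Pola2, its regulatory subunit (-0.47, edgeR adjusted p = 0.0734). Prim1, the catalytic subunit of primase, was at 100.3 and 92.2 normalised CPM in the wild type, 73.6 and 64.5 in miR-144/451-null, 113.8, 122.3 and 122.6 in Nrf2-null, and 78.7, 61.8 and 85.5 in double-null libraries. All 5 libraries without the cluster were below all 5 with it. Prim1 fell by 0.67 ± 0.13 on the log2 scale (edgeR adjusted p = 0.00446), and Pola1, the catalytic subunit of polymerase alpha, by 0.76 ± 0.17 (edgeR adjusted p = 0.00758). Of the 4 genes of the elongating polymerases, 1 fell. This was Pole2, the second subunit of polymerase epsilon, (-0.58 ± 0.20, edgeR adjusted p = 0.0498), just inside the threshold. Pole, its catalytic subunit, did not pass (-0.37, edgeR adjusted p = 0.117), and neither did the polymerase delta genes Pold1 (-0.03, edgeR adjusted p = 0.923) and Pold2 (-0.07, edgeR adjusted p = 0.837). Pold1 was at 90.3, 94.7 and 95.4 normalised CPM in Nrf2-null and 94.6, 80.2 and 100.6 in double-null libraries, which overlap.

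Prim2, the large regulatory subunit of primase, had a pattern of its own among the 40 genes. It was at 78.1 and 55.4 normalised CPM in the wild type, 71.4 and 62.1 in miR-144/451-null, 139, 141 and 135 in Nrf2-null, and 80.7, 100.8 and 88.6 in double-null libraries. The Nrf2-null libraries stood above all others, and the double-null libraries lay above the wild type and miR-144/451-null libraries. Prim2 was the 1 replication gene that rose in Nrf2-null against wild type cells (1.05 ± 0.17, edgeR adjusted p = 0.0367), a comparison in which 0.128% of all tested genes rose. That call was lost without wild type replicate 3 (0.82, edgeR adjusted p = 0.364) and without any 1 Nrf2-null library or double-null replicate 3 (edgeR adjusted p from 0.0702 to 0.123). With library totals alone it was 0.93 (edgeR adjusted p = 0.139). In double-null against Nrf2-null cells Prim2 fell by 0.62 ± 0.14 (edgeR adjusted p = 0.00942). Between double-null and miR-144/451-null cells the difference was 0.43 ± 0.16 (edgeR adjusted p = 0.407). The ratio of Prim2 to Prim1 in deposited FPKM was 0.507 and 0.391 in the wild type, 0.633 and 0.627 in miR-144/451-null, 0.796, 0.752 and 0.717 in Nrf2-null, and 0.668, 1.06 and 0.675 in double-null libraries. The wild type libraries had the lowest ratios of the 10. Since both wild type libraries came from females and all Nrf2-null libraries from males, sex and genotype cannot be told apart here.

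All 4 genes of single-strand binding and Okazaki fragment joining fell in double-null against Nrf2-null cells, with a median of -0.76. Rpa3, the smallest subunit of the single-strand binding protein RPA, was at 24.6 and 20.4 normalised CPM in the wild type, 15.8 and 18.5 in miR-144/451-null, 23.1, 22.4 and 23.7 in Nrf2-null, and 12.6, 11.3 and 16.1 in double-null libraries. The 5 libraries with the cluster were all above the 5 without it. Rpa3 fell by 0.79 ± 0.17 on the log2 scale (edgeR adjusted p = 0.00631), and Rpa2, the middle subunit, by 0.67 ± 0.18 (edgeR adjusted p = 0.0172). Lig1, the ligase that seals Okazaki fragments, was at 340, 363 and 384 normalised CPM in Nrf2-null and 225, 169 and 263 in double-null libraries, and fell by 0.72 ± 0.16 (edgeR adjusted p = 0.00757). Fen1, the flap nuclease, fell as well (-0.87 ± 0.26, edgeR adjusted p = 0.028) but had 37 to 88 counts per library, and 84.2% of its annotated exon bases are overlapped by other genes, so its level of 1.65 FPKM, the lowest of the 40, is uncertain.

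Behind the fork, Uhrf1, which brings DNA methylation to newly copied DNA, was at 500 and 427 normalised CPM in the wild type, 355 and 262 in miR-144/451-null, 549, 600 and 724 in Nrf2-null, and 332, 229 and 369 in double-null libraries. Libraries without the cluster were again all below those with it, and Uhrf1 fell 2.02-fold in double-null against Nrf2-null cells (-1.01 ± 0.20, edgeR adjusted p = 0.00383). Part of the Uhrf1 count is uncertain, since 24.2% of its 31-mers are also found in other genes, most often in a processed pseudogene. Chaf1a (-0.55 ± 0.17) and Chaf1b (-0.64 ± 0.17), subunits of the histone chaperone CAF-1, fell too, although 51% of the 31-mers of Chaf1a are also found in other genes, most often in Ubxn6. Ung, which removes uracil from DNA, did not pass (-0.01, edgeR adjusted p = 0.972). It was at 14.8, 14.1 and 19.1 normalised CPM in Nrf2-null and 11.8, 16.6 and 19.2 in double-null libraries.

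**Figure D5:**
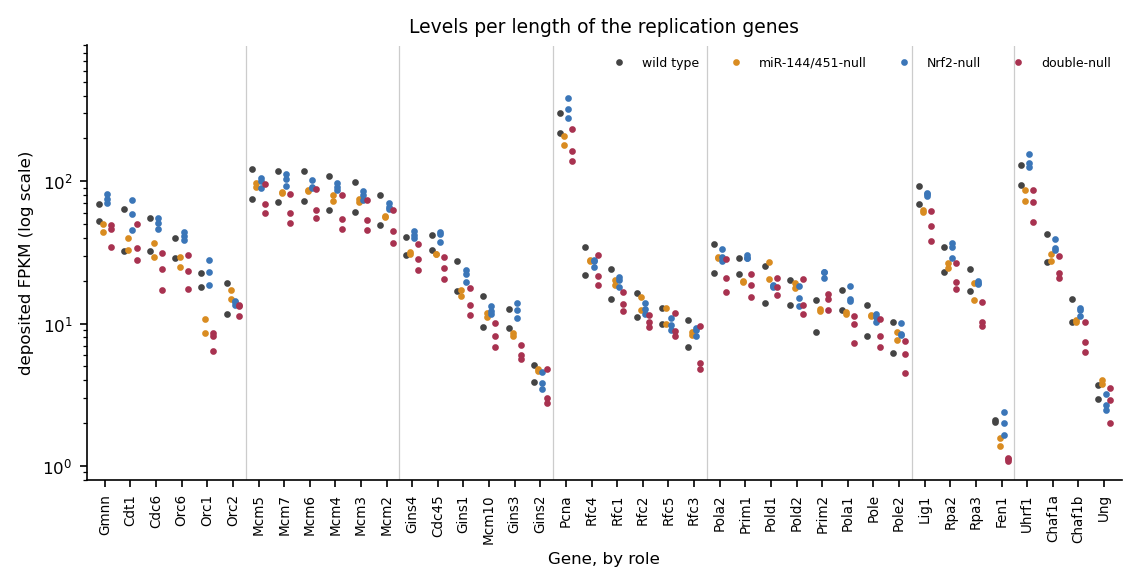
Deposited FPKM, a level per length, of the 40 replication genes in each library (points, coloured by genotype) on a log axis, ordered by role and then by mean level. Pcna is highest, Uhrf1 follows at a mean of 101 FPKM, the 6 ring genes lie together between means of 58.8 and 90.5 FPKM, and Fen1 is lowest.

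With Nrf2 present, loss of the cluster gave smaller estimates in the same direction. Between miR-144/451-null and wild type cells, 1 of the 40 genes fell and none rose, where 2.23% of all tested genes fell. The median log2 fold change was -0.28, against 0.02 over all tested genes, and 37 estimates were below 0 (32 with library totals alone). The gene that fell was Orc1 (-1.17 ± 0.22, edgeR adjusted p = 0.0138), and its call was lost without wild type replicate 1 (-1.13, edgeR adjusted p = 0.0834), wild type replicate 3 (-1.20, edgeR adjusted p = 0.084) or miR-144/451-null replicate 3 (-0.91, edgeR adjusted p = 0.0917). The miR-144/451-null libraries lay below both wild type libraries for 15 of the 40 genes, a separation seen for 22.8% of all tested genes. Those 15 included Orc1, Gins3, Cdc45, Pcna, Prim1, Pola1, Lig1 and Uhrf1. No ring gene was among them. Ring estimates were -0.30 to -0.16. With a term for sex the median was 0.12, but in that fit the wild type libraries are both female and the sex term rests on double-null replicate 3 alone among the null libraries. With wild type replicate 1 left out the median was -0.047, and with wild type replicate 3 left out it was -0.43. Leaving out miR-144/451-null replicate 3 gave -0.18.

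Whether the effect of losing the cluster differed with and without Nrf2 was tested by the interaction. None of the 40 genes passed by edgeR (0.0638% of all tested genes passed in either direction) or by DESeq2. At an unadjusted p under 0.05 there were 2 genes, both with a larger decrease without Nrf2: Prim2 (-0.62 ± 0.23, edgeR adjusted p = 0.999) and Gins3 (-0.54 ± 0.23, edgeR adjusted p = 0.999). The median estimate was -0.30, and 39 of the 40 estimates were below 0. With wild type replicate 3 left out the median was -0.15, with 32 estimates below 0. Leaving out miR-144/451-null replicate 1 gave -0.16, and leaving out double-null replicate 2 gave -0.18. It was -0.49 without wild type replicate 1 and -0.45 without double-null replicate 3. The difference between 24 genes and 1 gene called is therefore not shown to be a difference between backgrounds. For Orc1 the interaction was -0.41 ± 0.28.

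Between Nrf2-null and wild type cells, Prim2 alone rose. The other 39 genes did not pass, with a median of 0.15 over the 40 and 36 estimates above 0. That direction depended on the scaling and on 1 library: with library totals alone the median was 0.03, with 16 estimates below 0, and without wild type replicate 3 it was -0.032 (0.39 without wild type replicate 1). The 3 Nrf2-null libraries were above both wild type libraries for 10 of the 40 genes, a separation seen for 15.7% of all tested genes. Those genes were Orc1, Orc6, Gmnn, Cdc45, Gins3, Gins4, Pcna, Prim1, Prim2 and Uhrf1. In cells without the cluster, double-null against miR-144/451-null, none of the 40 passed by edgeR or DESeq2, where 0.0638% of all tested genes passed in either direction. At an unadjusted p under 0.05 there was 1 gene, Prim2, and the median was -0.12, with 31 estimates below 0. That median was -0.0013 without double-null replicate 2, with 20 estimates below 0, and -0.019 without miR-144/451-null replicate 1. It was -0.24 without miR-144/451-null replicate 3 or double-null replicate 3.

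Between double-null and wild type cells, 5 of the 40 genes fell and none rose, where 8.95% of all tested genes fell, and the median was -0.36. They were Orc1, Gins3 (-0.72 ± 0.16, edgeR adjusted p = 0.0125), Rpa3 (-0.76 ± 0.19, edgeR adjusted p = 0.0194), Cdc45 (-0.50 ± 0.15, edgeR adjusted p = 0.0377) and Lig1 (-0.61 ± 0.18, edgeR adjusted p = 0.0391). Orc1 alone kept its call without any 1 library. The number that fell was 1 without wild type replicate 1, 2 without wild type replicate 3 or double-null replicate 1, and 3 without double-null replicate 2, Nrf2-null replicate 1 or Nrf2-null replicate 2. The median was -0.12 without wild type replicate 1, -0.23 without double-null replicate 2 and -0.55 without wild type replicate 3. With a term for sex, which double-null replicate 3 allows in this comparison, Orc1 alone fell and the median was -0.13. The share called among the replication genes, 5 of 40, was near that of all tested genes. This comparison and the one with Nrf2-null cells use the same double-null libraries.

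Replication genes outside the 40 gave a similar description. Of 43 other genes of the process, all tested, 20 fell and 1 rose in double-null against Nrf2-null cells, where 12.9% of all tested genes fell and 14.4% rose, with a median of -0.48. The smallest p-values were those of Asf1b, a histone chaperone (-1.76 ± 0.18, edgeR adjusted p = 8.98e-05), Dbf4 (-1.16 ± 0.13) and Cdc7 (-0.97 ± 0.15), the subunits of the kinase that starts origin firing, and Slbp, which binds histone mRNA (-1.31 ± 0.23). The gene that rose was Top1, a topoisomerase (0.86 ± 0.18, edgeR adjusted p = 0.00471). In miR-144/451-null against wild type cells, where 2.23% of all tested genes fell, 3 of the 43 did, Asf1b (-1.33 ± 0.21), Dbf4 (-0.71 ± 0.16) and Donson (-0.88 ± 0.20). Of 25 genes of mitosis, 23 fell in double-null against Nrf2-null cells with a median of -0.995, and 12 fell in miR-144/451-null against wild type cells with a median of -0.70. The same shares of all tested genes, 12.9% and 2.23%, stand beside these counts. The 40 replication genes had medians of -0.60 and -0.28 in these comparisons. Whether the lists differ from each other was not tested.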

How the data were processed

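RNA was sequenced from 10 libraries. The authors deposited raw counts per gene and, for each library, FPKM values. The FPKM values equal the count divided by 1 length per gene and the library total, as the deposited values show, and served only to set levels of different genes side by side. HISAT2 2.1.0, Bowtie2 2.2.3, TopHat2, CASAVA and mm9 are named in the submitters' processing notes, without their roles. Counting tool, annotation and strandedness: not given in the sources used here, so overlapping genes were not told apart. Symbols, 31-mers and exon overlaps came from GENCODE M21 (GRCm38) and promoters from RefSeq (GRCm38.p6), and no coordinates were converted.

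All 10 libraries entered 1 fit of the counts in R 4.3.3 with edgeR 4.0.16 (filterByExpr, TMM factors, robust quasi-likelihood test, two-sided, Benjamini-Hochberg over 14110 genes, 6 residual degrees of freedom). The interaction was (double-null minus Nrf2-null) minus (miR-144/451-null minus wild type). A gene fell or rose where its adjusted p was under 0.05. DESeq2 1.42.0, other scalings and filters, a term for sex, a replicate block and leaving out each library were alternatives. The fit was also run on simulated counts. There genes varied independently, unlike the replication genes here, which varied together, and no result rests on that run. Libraries of a genotype differed beyond sampling noise (chi-square over its degrees of freedom, 15.5 to 27.2), and each was kept as a library of its own. The number of counts per gene limits precision, most for Fen1.

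The 40 genes and the other lists were chosen with earlier results of these data known. Any of the 40 could be named. Values in each library were given for genes with the smallest adjusted p in a role and for genes that differed from their role, and of the other replication genes up to 4 per comparison were named by smallest p. Top1 was named after its value was seen, as were the 6 promoters.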

Additional observations from a re-analysis of the deposited data

How the results depend on the processing

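In double-null against Nrf2-null cells no alternative turned the direction of the median or let a gene rise. The number that fell was 14 to 28 when 1 library was left out, and 18 to 31 under the others. Between miR-144/451-null and wild type cells it was 0 or 1 (0 with a term for sex and with the compared groups alone), and the median was -0.43 to -0.047 without 1 library and 0.12 with a term for sex. Between Nrf2-null and wild type cells the number that rose was 0 or 1 without 1 library and 0 with library totals alone, the replicate block, a term for sex or the compared groups alone. The median was -0.032 to 0.39 without 1 library and 0.59 with a term for sex. Between double-null and wild type cells the number that fell was 1 to 7 without 1 library, 8 with library totals alone, 8 with no filter, 2 with the replicate block, 1 with a term for sex and 2 with the compared groups alone. Its median was -0.55 to -0.12 without 1 library and -0.13 with a term for sex. The double-null against miR-144/451-null median was -0.24 to -0.0013 without 1 library and -0.33 with library totals alone. The interaction median was -0.49 to -0.15 without 1 library and -0.85 with a term for sex. The causes were not tested.

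Scaling by library totals alone moved the median of all tested genes, which was then 0.15 for miR-144/451-null minus wild type, -0.12 for Nrf2-null against wild type, -0.24 in double-null against miR-144/451-null and -0.11 in double-null against wild type cells. With it, 497 genes rose and 247 fell between miR-144/451-null and wild type cells (338 and 315 with TMM factors), 803 and 1433 between double-null and wild type cells (1165 and 1263), and 14 and 11 between Nrf2-null and wild type cells (18 and 9). Same-numbered libraries of different genotypes had correlations of -0.13 to 0.33 in their deviations from the genotype mean, with 1 of 13 over 0.1. Differently numbered pairs had -0.33 to 0.31, with 3 of 24 over 0.1. In a genotype of 2 libraries these deviations mirror each other, so the correlations cannot decide whether replicate numbers pair the libraries. With the replicate block 20 of the 40 genes fell between double-null and Nrf2-null cells, against 1758 of all 14110 tested genes. The compared groups alone gave no separate interaction, which uses all groups already. Where 1 library was left out of a pair, the remaining library was assumed to vary like the other groups. Leaving out Nrf2-null and double-null replicates 3 together was chosen after seeing the data.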
